A study of Saccharomyces cerevisiae with 6 samples.

Results

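The response of wild type *S. cerevisiae* to rapamycin was taken from 2 arrays on which RNA of treated and mock-treated cells was compared, and it covers 2960 of the 6212 ORFs listed in the deposited table. These are the ORFs with a log2 ratio of rapamycin over mock on both arrays, outside chromosomes XII and XIII. The treated culture was BY4741, a haploid strain of mating type a without working *HIS3*, *LEU2*, *URA3* and *MET17* genes, exposed in rich YPD medium at 28 °C to 200 ng/ml rapamycin for 1 h, and it was compared with the other part of the same culture, given the drug vehicle for the same time. On array 1 the cDNA of treated cells was labelled with Cy3, on array 2 with Cy5, and that of mock-treated cells with the opposite dye. The other 4 arrays of the series hold the same comparison in *ptc6* and *ptc1 ptc6* cells, which lack the phosphatase Ptc6 or both Ptc1 and Ptc6, each against a mock-treated culture of its own strain.

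Rapamycin binds the prolyl isomerase Fpr1, and the complex inhibits TORC1, the kinase complex that couples growth of yeast to the supply of nitrogen and amino acids. In growing cells TORC1 keeps ribosome synthesis on and holds back autophagy, stress genes and genes for poor nitrogen sources. Its known outputs include the kinase Sch9, phosphatases of the PP2A family, the stress factors Msn2 and Msn4 and the nitrogen factors Gln3 and Gat1.

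An ORF was called induced when the mean of its 2 log2 ratios was above 1, which is a 2-fold difference, and repressed when it was below -1. By this limit 436 ORFs were induced (14.7%), 535 were repressed (18.1%) and 1989 (67.2%) were neither. These shares over all ORFs are the background for every count given for a gene group. The arrays hold the same 2 RNA preparations and are technical replicates of 1 culture, so no test was made, and the difference between arrays does not cover the variation between cultures. Ratios compare shares of labelled RNA, so a lower level of a transcript per cell and a change in total mRNA cannot be told apart. In the sentences that follow, paired values are the log2 ratios on array 1 and array 2.

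Across the 2960 ORFs, which are not independent replicates, the values of both arrays correlated with a Pearson r of 0.967, and the standard deviation of their difference was 0.37 log2 units. All 971 induced or repressed ORFs had the same sign on both arrays, and 369 of the induced and 490 of the repressed ones passed 2-fold on each array. The median log2 ratio was 0.04, with quartiles at -0.63 and 0.61. The repressed side was the deeper, with 276 ORFs below -2 against 142 above 2, and 48 below -4 against 23 above 4. Only 47 ORFs differed by over 1 log2 unit between arrays. The widest were *MAM33*, which encodes a mitochondrial matrix protein (-5.16 and -0.41), *RTS2* (-2.31 and 2.07), and the nicotinamide riboside transporter gene *NRT1* (-1.70 and 1.48). Among repressed ORFs the call of *MAM33* and that of *SDA1* (-3.17 and -0.31) therefore rested on array 1.

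**Figure D1:**
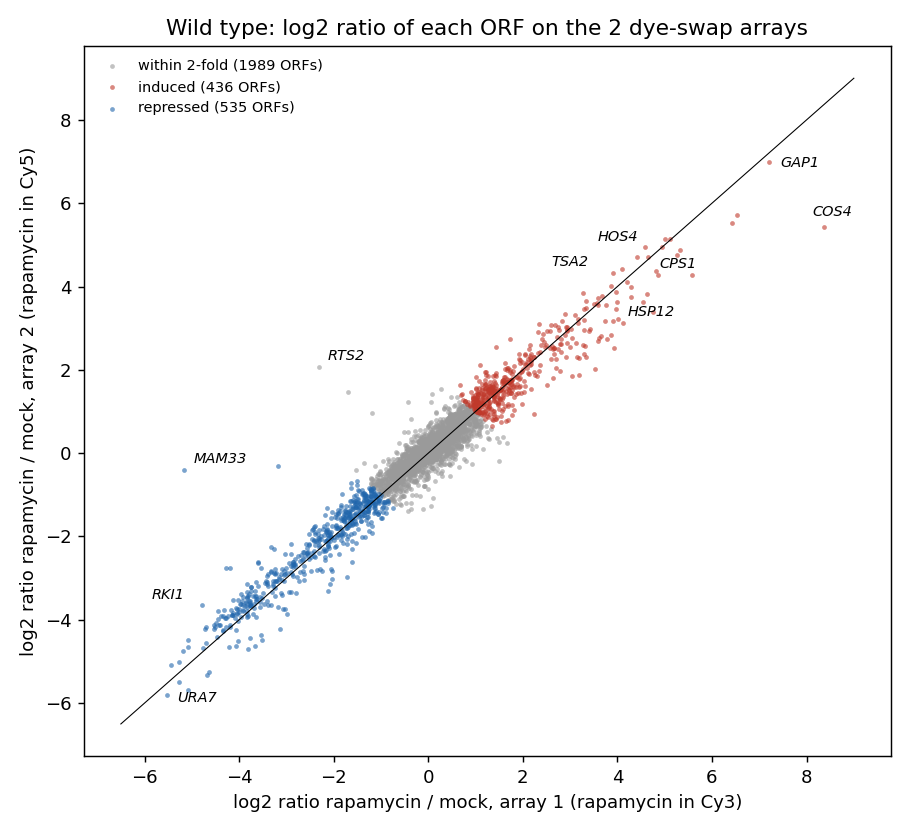
Log2 ratio of rapamycin over mock on array 1 (x axis) and array 2 (y axis) for each of 2960 ORFs of wild type cells, coloured by call, with the line of equal values. Most ORFs lie near the line, *GAP1* and *COS4* stand at the top right, *URA7* at the bottom left, and *MAM33* and *RTS2* lie far off the line.

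The markers of the labelled strain were read as ratios of rapamycin over mock. Such a ratio compares treated with mock-treated cells of the same strain, so it cannot show whether the strain is the labelled one. *BAR1*, the a-cell protease for alpha factor, had 1.41 on both arrays, and *STE2*, the alpha factor receptor, had 1.01 and 1.04. *STE6* (0.81 and 0.52) and *MFA2* (0.86 and 0.85) also had values, *MFA1* had none, and of the alpha genes *STE3* had no value and *SAG1* had -0.36 and -0.45. *LEU2* had no value on either array, whereas *URA3* had 0.45 and 0.72 and *HIS3* had 1.82 and 2.10. Only part of *HIS3* is removed in this strain, but *URA3* should be absent, and the source of its ratio was not tested. The reference genes *ACT1*, for actin (0.12 and 0.11), and *TDH3*, for a glyceraldehyde phosphate dehydrogenase (-0.36 and -0.13), were within 2-fold.

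Genes of ribosome synthesis, translation and nucleotide synthesis and genes of nitrogen use and amino acid synthesis are the known core of this response, and they were counted apart. The growth lists also included nuclear transport, the RNA exosome, tRNA modification, the CCT chaperonin, chaperones of nascent chains and regulators of ribosome genes. The 413 ORFs of the growth lists held 291 of the repressed ORFs, or 54.4% of all repressed, and 7 induced ORFs. The nitrogen and amino acid lists held 129 ORFs with 70 induced, or 16.1% of all induced, and 17 repressed. The remaining 2418 ORFs held 359 induced (14.8% of them, and 82.3% of all induced ORFs) and 227 repressed (9.39% of them, and 42.4% of all repressed ORFs). The induced share outside both blocks was thus close to the 14.7% of all ORFs, and the repressed share was below the 18.1% of all. Of these ORFs, only those in a list are described by function below. A further 1120 were in no list, with 161 induced and 142 repressed. Some of those act in growth, such as *KRE33* and *RSA4*, so the remainder is not free of growth genes.

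The highest mean was that of a nitrogen gene, followed by that of *COS4* (8.36 and 5.44), a gene near a chromosome end, and those of other nitrogen genes. *GAP1* (YKR039W), the general amino acid permease, had 7.21 and 7.0, *DAL5* (YJR152W), the allantoate permease, had 6.52 and 5.71, and the ammonium permease gene *MEP2* (YNL142W) had 6.43 and 5.53. All 8 genes of arginine synthesis with a value were induced, led by *ARG1* (5.01 and 5.15) and *ARG4* (4.59 and 4.95), which catalyse its last steps. On the repressed side, all 60 genes for large and all 40 for small subunit ribosomal proteins passed the limit, with medians of -3.61 and -3.65, as did 83 of 101 genes for ribosome assembly, led by *RPF2* (-5.07 and -5.69) and *BRX1* (-5.26 and -5.49). Many ribosomal protein genes have a nearly identical copy that a probe made from a whole ORF cannot tell apart. The lowest mean was that of *URA7* (YBL039C), a CTP synthase (-5.53 and -5.81), followed in its list by *URA1* (YKL216W), the dihydroorotate dehydrogenase (-4.67 and -5.33).

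The vacuole, where yeast degrades proteins and organelles, had the list with the highest induced share (70.6%) outside nitrogen use and amino acid synthesis. Of 17 genes for vacuolar proteases and hydrolases, 12 were induced and 1 repressed, with a median log2 ratio of 1.71 against 0.04 for all ORFs. *CPS1* (YJL172W), the carboxypeptidase that releases amino acids from short peptides, had 4.65 and 4.70. *APE1* (YKL103C), an aminopeptidase brought to the vacuole by selective autophagy, had 4.82 and 4.37. *AMS1*, the alpha-mannosidase that takes the same route, had 4.02 and 3.23, and *PRB1*, protease B, had 2.36 and 2.42. The exception was *VTC3*, a subunit of the polyphosphate polymerase of the vacuole membrane, with -1.62 and -2.31. 

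Autophagy genes followed, with 9 of 16 induced, none repressed and a median of 1.31. *ATG8* (YBL078C), which encodes the ubiquitin-like protein of the autophagosome membrane, had 3.59 and 2.69, and *ATG29*, a scaffold component at the site of autophagosome formation, had 3.19 and 1.87. *ATG34* (2.70 and 2.25) and *ATG36* (2.70 and 2.05) encode receptors that select cargo, for Ams1 and for peroxisomes. Array 1 was the higher for all 4 of these. The genes that acidify the same organelle did not take part to that extent, as 0 of 17 genes for subunits of the vacuolar ATPase passed either limit, and their means lay between -0.47 and 0.84 (median 0.10). Vacuolar transporters stood between these groups. Of 11 genes for export and import of amino acids and polyamines at the vacuole, 5 were induced and 0 repressed (median 0.84), among them *RTC2* (3.19 and 2.28), for a PQ-loop protein that moves cationic amino acids, and the exporter genes *AVT6* (1.92 and 1.77) and *AVT7* (1.66 and 2.00), whereas *AVT1* (0.38 and 0.50) and *AVT3* (0.30 and 0.27) were within 2-fold.

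Protein turnover in the cytosol gave other values. None of 36 proteasome genes was induced and 2 were repressed, *SCL1* (-1.96 and -1.45) and *PRE3* (-1.34 and -1.02), both for subunits of the core particle, with a median of -0.15. Of 48 genes for ubiquitin and its ligases, 10 were induced and 4 repressed. *UBX6* (1.95 and 1.61) and *UBX3* (1.82 and 1.04) encode proteins with a UBX domain, which binds Cdc48, *UBC5* (1.81 and 1.36) a ubiquitin-conjugating enzyme, and *ECM21* (1.40 and 1.48) an adaptor that brings the ligase Rsp5 to permeases. Repressed were *BRE5*, for a cofactor of a deubiquitinating enzyme (-1.49 and -1.33), and *UBP10*, for another such enzyme (-1.27 and -1.22). The share induced among ubiquitin genes, 20.8%, was not far from the 14.7% of all ORFs.

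Endosomal sorting carries proteins from the Golgi and the plasma membrane to the vacuole, and 7 of its 25 genes were induced and 0 repressed (median 0.48). *GGA1*, an adaptor for transport from the Golgi to the endosome, had 1.75 on both arrays. *PEP12*, the syntaxin of the endosome, had 1.76 and 1.74, *PEP8*, a retromer subunit, had 1.68 and 1.75, and *VPS27*, of the ESCRT-0 complex, had 1.28 and 1.48. Genes for actin and endocytosis showed a small and even difference, with 8 of 39 induced, 0 repressed and a median of 0.54, but of these 8 only 2 passed 2-fold on both arrays. *YSC84*, an actin-binding protein of endocytic patches, had 2.18 and 2.24, *ABP1* had 1.25 and 1.14, and *ARC19*, of the Arp2/3 complex, had 0.95 and 1.37. Earlier steps of secretion stayed near 0. Of 49 genes of COPI, COPII and Golgi traffic 1 was induced, *SFT2* (1.30 and 1.55), and 0 were repressed, of 30 genes of translocation and folding in the endoplasmic reticulum 0 were induced and *SEC62* (-1.44 and -1.23) was repressed, and of 59 genes of glycosylation 3 were induced and 3 repressed. Among 25 genes of exocytosis and polarity, *MSB3* (3.39 and 2.93) and its relative *MSB4* (1.27 and 0.86), which encode GTPase-activating proteins for Rab GTPases, were the 2 induced ones.

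Storage carbohydrates gave a further induced group, with 6 of 12 genes of trehalose and glycogen metabolism induced and 0 repressed (median 1.14). Synthesis and breakdown were induced side by side. *GLC3*, the glycogen branching enzyme, had 3.31 and 2.57, and *GDB1*, the debranching enzyme, had 3.29 and 2.37. *TPS1*, which makes trehalose phosphate, had 1.55 and 1.68, and *NTH1*, the neutral trehalase, had 1.96 and 1.94. *GLG1*, a glycogenin that primes glycogen synthesis, had 1.98 and 1.17, and *PIG2*, a targeting subunit of the phosphatase that acts on glycogen synthase, had 1.57 and 1.21. The other 6 members, *TPS2*, *UGP1*, *PCL10*, *SGA1*, *PGM1* and *PCL8*, had means from 0.89 to -0.77.

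Stress genes were induced in part. Of 34 general stress genes of other roles, which are known targets of Msn2 and Msn4 or are commonly seen among stress genes, 17 were induced and 1 repressed (median 1.01). *GPG1* (YGL121C), proposed to encode a G protein gamma subunit, had 4.86 and 4.27, *NQM1*, a transaldolase, had 3.97 and 3.47, and *SOL4*, a 6-phosphogluconolactonase, had 3.34 and 2.31. *MPC3*, for a subunit of the mitochondrial pyruvate carrier, had -2.22 and -1.81. Of 44 antioxidant and redox genes, 15 were induced and 2 repressed (median 0.73). *TSA2*, a thioredoxin peroxidase, had 3.91 and 4.33, *ECM4*, a glutathione transferase, had 3.41 and 2.99, *GCY1*, an aldo-keto reductase, had 3.30 and 2.96, and *GTT1*, a glutathione transferase, had 2.72 and 2.78. The methionine sulfoxide reductase gene *MXR1* (-1.28 and -1.70) and the glutaredoxin gene *GRX4* (-1.66 and -1.26) were repressed.

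Heat shock genes did not move as a group. Of 26 genes for heat shock proteins and cytosolic chaperones, 6 were induced and 2 repressed, with a median of -0.05. Those induced included *HSP12*, a small membrane-associated protein (3.99 and 3.64), *HSP26*, a small heat shock protein (3.73 and 3.18), *HSP78*, the mitochondrial disaggregase (2.79 and 2.63), and *HSP31*, a protein of the DJ-1 family (2.43 and 2.85). *CNS1*, an essential co-chaperone of Hsp90, had -2.21 and -2.29, and *HSP30*, a plasma membrane stress protein, had -1.61 and -1.67. In 26 genes of this list with values in all 3 strains the median was -0.05 in wild type cells, 0.11 in *ptc6* cells and 0.60 in *ptc1 ptc6* cells, and this difference between strains was not tested.

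**Figure D2:**
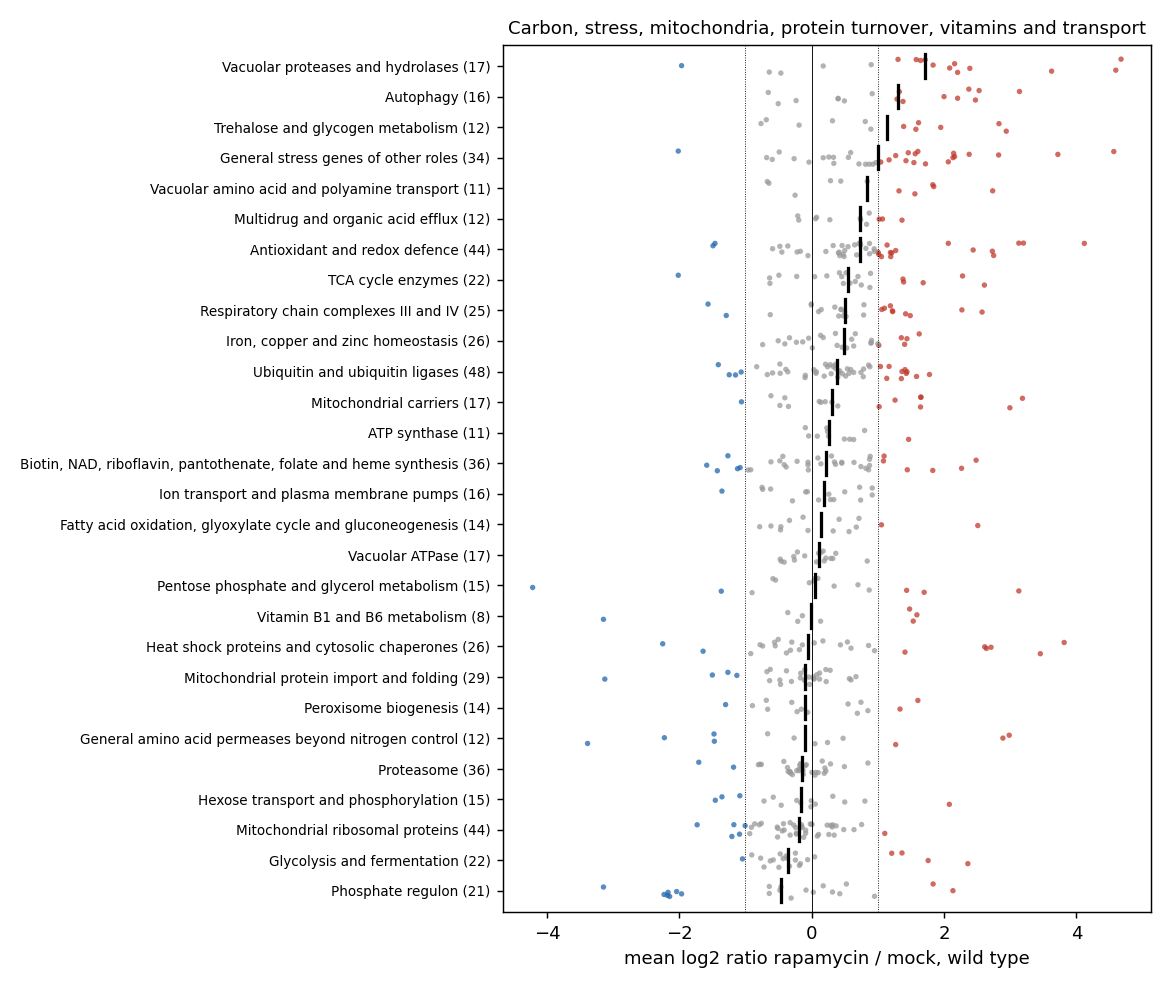
Mean log2 ratio of rapamycin over mock (x axis) of each gene, by list (rows, ordered by median, with the number of ORFs with a value in parentheses). Red points are induced, blue points repressed and grey points within 2-fold, dotted lines mark the limits of 1 and -1, and black bars are medians. Vacuolar proteases (1.71), autophagy (1.31) and storage carbohydrates (1.14) have the highest medians, and the phosphate regulon (-0.46) has the lowest.

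The central path of sugar breakdown stayed mostly within 2-fold, and the induced members were minor isoenzymes and regulators. Of 22 genes of glycolysis and fermentation, 4 were induced and 1 repressed (median -0.35). *PYK2*, the pyruvate kinase isoform that is not activated by fructose bisphosphate, had 2.32 and 2.40. *FBP26* (1.92 and 1.60) and *PFK26* (1.28 and 1.45) encode enzymes that remove and make the regulator fructose 2,6-bisphosphate, and *ADH5* is a minor alcohol dehydrogenase (1.29 and 1.13). *PDC6*, a minor pyruvate decarboxylase, had -0.92 and -1.17. Sugar uptake genes showed 1 induced and 3 repressed of 15 with a value, which were *GLK1*, glucokinase (1.98 and 2.18), against *HXK2*, the main hexokinase (-1.55 and -1.16), and the low affinity transporter genes *HXT1* (-1.41 and -1.50) and *HXT3* (-1.22 and -0.95). In the pentose phosphate and glycerol list, *RKI1*, ribose 5-phosphate isomerase, had by far the lowest value of the list (-4.79 and -3.64). It is transcribed divergently from *RPS7A*, a ribosomal protein gene with -4.47 and -4.41.

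Mitochondrial genes divided by role. Of 22 genes of the TCA cycle and pyruvate dehydrogenase 5 were induced and 1, *MPC3*, repressed (median 0.55). *PKP2*, a kinase that inactivates pyruvate dehydrogenase, had 2.32 and 2.90, *IDP1*, the mitochondrial NADP isocitrate dehydrogenase, had 2.17 and 2.39, *LSC2*, of succinyl-CoA ligase, had 1.67 and 1.70, and *SDH5*, an assembly factor of succinate dehydrogenase, had 1.26 and 1.52. Of 25 genes of the respiratory chain 9 were induced and 2 repressed (median 0.50). *COX5B*, the low oxygen isoform of a cytochrome oxidase subunit, had 2.40 and 2.75, and *NDE2*, an external NADH dehydrogenase, had 2.24 and 2.30. The repressed ones, *SHY1* (-1.77 and -1.36) and *COX18* (-1.27 and -1.31), act in the assembly of cytochrome oxidase. Among 11 genes of the ATP synthase list 1 was induced, *ATP22* (1.58 and 1.35), which encodes a factor for synthesis of a subunit and not a subunit. The others, of which *ATP2*, *ATP11* and *ATP7* had the lowest means, lay between -0.10 and 0.80.

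Carriers of the mitochondrial inner membrane had 7 of 17 genes induced and 1 repressed (median 0.30). *ORT1*, the ornithine carrier, had 3.16 and 3.21, and *GGC1*, the GTP and GDP carrier, had 2.82 and 3.17. *PET8*, which carries S-adenosylmethionine, had 1.71 and 1.59, and *YMC1* had 1.42 and 1.88. Both lists of genes that build the organelle had a smaller share repressed (13.8% and 11.4%) than the 18.1% of all ORFs, and few or none induced. Protein import and folding had 0 of 29 induced and 4 repressed, namely *TOM20*, a receptor of the outer membrane (-2.91 and -3.34), *MGE1*, the nucleotide exchange factor of mitochondrial Hsp70 (-1.46 and -1.54), *TIM23*, the channel of the inner membrane (-1.07 and -1.46), and *PAM17* (-1.2 and -1.06). Mitochondrial ribosomal proteins had 5 of 44 repressed, led by *RSM26* (-1.69 and -1.77), and their median was -0.19 against medians under -3.6 for the cytosolic ones. The 1 induced gene of that list was *KGD4* (0.95 and 1.26), listed there under its old name but known as a subunit of alpha-ketoglutarate dehydrogenase.

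Peroxisomes and fat breakdown were poorly covered, with 14 genes each and shares of induced genes of 14.3% in both lists, close to the 14.7% of all ORFs. *POT1*, the thiolase of beta-oxidation, had 2.47 and 2.55, and *ACH1*, a coenzyme A transferase, had 1.04 and 1.07. *PEX21* (1.76 and 1.45) encodes a co-receptor of peroxisomal import that works with the product of *PEX7* (-1.56 and -1.04), so the values of these partners were opposite in sign. *PEX29*, for a protein that controls peroxisome size and number, had 1.47 and 1.2.

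Lipid synthesis gave few calls. Of 19 genes of ergosterol synthesis 1 was induced, *ERG26* (0.94 and 1.22), and 0 were repressed, and of 26 genes of fatty acid and sphingolipid synthesis 1 was induced and 2 repressed. These 2 were *ELO2*, a fatty acid elongase (-1.83 and -1.87), and *KEI1*, of inositol phosphorylceramide synthase (-1.78 and -1.59). Phospholipid genes had 4 of 28 induced (14.3%, against 14.7% of all ORFs) and 2 repressed. *OPI3*, a methyltransferase of phosphatidylcholine synthesis, had 2.90 and 3.35, over 1.5 log2 units above the next member of the list, *AYR1* (1.45 and 1.41). The CDP-diacylglycerol synthase gene *CDS1* (-1.27 and -1.40) was repressed.

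Cell wall genes leaned to induction for surface proteins. Of 20 genes for mannoproteins, seripauperins and flocculins 7 were induced and 0 repressed (median 0.51). *PST1*, a wall protein made in response to wall damage, had 2.45 and 2.68, *AGA2*, a subunit of a-agglutinin, had 1.69 and 2.04, *SED1*, a structural protein of resting cells, had 1.67 and 2.05, and *FIT1*, a mannoprotein that holds siderophore iron, had 1.60 and 1.65. Wall glucan and chitin genes had 4 of 26 induced (15.4%), close to the 14.7% of all ORFs. Among them were *GSC2*, the alternative glucan synthase (1.59 and 1.46), *CHS1*, chitin synthase I (1.46 and 1.53), and *CRH1*, a chitin transglycosylase (1.32 and 1.54). *NCA3*, of the SUN family (-2.20 and -1.76), and *SMI1* (-1.01 and -1.08) were repressed.

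Of 25 genes of pheromone response and mating type a, 10 were induced, 0 repressed and 15 within 2-fold (median 0.67), in medium without added pheromone. Of the 10 induced, 8 passed 2-fold on both arrays. *PRM5* had 2.81 and 2.75, *AFR1*, which acts in mating projections and in desensitization, had 2.66 and 2.53, *ASG7*, an a-specific regulator of signalling, had 2.23 and 1.95, and *FUS1*, for a membrane protein of cell fusion, had 1.70 and 1.72. *PRM5* is also known as a target of the cell wall integrity pathway. The kinase of that pathway, *SLT2*, had 2.17 and 2.22, and its transcription factor *RLM1*, chosen after its values were seen, had 1.15 and 1.42. *KDX1* (3.65 and 2.81) and *YPL088W* (2.68 and 3.07), in no list, were also induced, the first a kinase homologue close to Slt2 and the second an ORF divergent from *RLM1*.

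Among 56 genes of protein kinase A, Snf1, TOR and stress kinase signalling 8 were induced and 3 repressed. The induced share, 14.3%, was close to the 14.7% of all ORFs. *PDE1*, the low affinity cAMP phosphodiesterase, had 2.57 and 2.94, and *SLM4*, of the EGO complex that anchors TORC1 at the vacuole, had 1.66 and 1.77. *RAS1*, a GTPase upstream of adenylate cyclase, had -2.06 and -2.78, and *TPK3*, a catalytic subunit of protein kinase A, had -1.2 and -1.66. *TOR1* and *FPR1* had no value on either array and *TOR2* had -0.08 on array 2 alone, so the target of the drug was hardly covered. Of 35 other transcription factors 9 were induced and 6 repressed, led by *CUP2*, the copper sensor (3.77 and 2.75), and *NRG1*, a repressor of glucose-repressed genes (1.96 and 1.44), against *HAP4*, the activating subunit for respiratory genes (-1.70 and -1.53), *TOS8* (-1.33 and -1.41) and *RAP1* (-1.44 and -1.19). The regulatory factor list for ribosome genes had 1 of 8 members repressed, which was *RAP1*, while *HMO1* (-0.18 and 0.12), *STB3* (-0.13 and 0.01) and *ABF1* (0.11 and -0.07) stood close to 0.

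Cell cycle and nuclear genes mostly stayed within 2-fold. The cyclin list had 2 of 18 induced and 1 repressed, which were *SRL3*, related to the G1 repressor Whi5 (3.98 and 3.88), *PCL5*, a Pho85 cyclin that acts on the factor Gcn4 (2.62 and 2.58), and *PCL7* (-1.23 and -0.87). Of 32 genes of mitosis 2 were induced and 2 repressed, and all 3 of *MCM21* (-2.53 and -2.21), *CTF19* (-2.33 and -2.13) and *MCM22* (1.2 and 1.57) are kinetochore genes. DNA replication and repair had 2 of 37 induced and 5 repressed (median -0.23). *MAG1*, a DNA glycosylase, had -3.10 and -2.77, and *PHR1*, the photolyase, had 2.18 and 1.55. Histones and their chaperones had 0 of 16 induced and 1 repressed, chromatin remodelling and modification 0 of 63 and 4, RNA polymerase II and its general factors 0 of 32 and 1, and splicing and mRNA decay 1 of 45 and 5. The repressed chromatin genes were *HOS3*, a histone deacetylase (-2.07 and -2.44), *RVB1* (-1.54 and -1.64) and *RVB2* (-1.2 and -1.15), helicases that also serve ribosome assembly, and *BRE1* (-0.95 and -1.42), a ubiquitin ligase for histone H2B.

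*HOS4* (YIL112W), in no list, was induced to 4.95 and 4.96, among the 15 highest values. Its product is a subunit of the Set3 histone deacetylase complex, and 3 further subunits, chosen after the values were seen, were near 0, with 0.32 and 0.38 for *SET3*, 0.16 and 0.31 for *SIF2* and 0.00 and 0.08 for *HST1*. *COX5B* is the next ORF by number to *HOS4*, with 2.40 and 2.75.

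**Figure D3:**
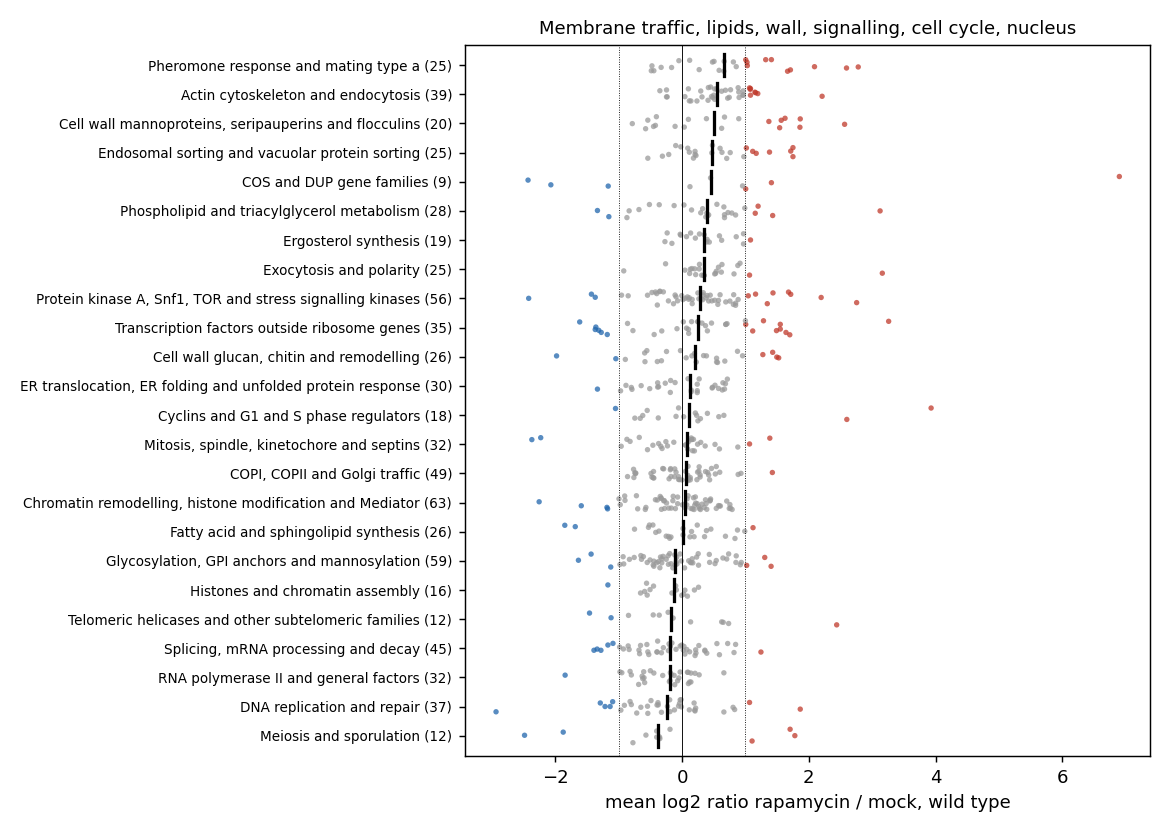
Mean log2 ratio of rapamycin over mock (x axis) of each gene in lists of membrane traffic, lipids, cell wall, signalling, cell cycle and nucleus (rows, ordered by median, with the number of ORFs with a value in parentheses). Red points are induced, blue points repressed and grey points within 2-fold, dotted lines mark 1 and -1, and black bars are medians. The medians lie between -0.38 and 0.67, with pheromone response at the top and the single point of *COS4* at 6.90 far to the right.

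Of 21 phosphate genes 7 were repressed (33.3%, against 18.1% of all ORFs) and 2 induced, with a median of -0.46. *PHO3*, an acid phosphatase that is also active on thiamine phosphates, had -3.53 and -2.76. *PHO89*, the sodium phosphate cotransporter, had -2.12 and -2.24, and *PHO11*, a secreted acid phosphatase, had -2.39 and -1.95. *PHO5* (-2.12 and -1.96) and *PHO12* (-2.39 and -1.90) are close copies that share sequence with *PHO3* and *PHO11*, so these spots are not independent. *CTF19* was counted here as the ORF divergent from *VTC3*, although its product is a kinetochore protein. The induced members were *PHO8*, the vacuolar alkaline phosphatase (1.77 and 1.90), and *PHM8*, a nucleotidase (2.15 and 2.12).

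Iron, copper and zinc genes had 5 of 26 induced and 0 repressed (median 0.49), with *FIT1* (1.60 and 1.65), *SMF1*, a manganese transporter (1.22 and 1.66), and *ISU1*, the scaffold for iron-sulfur clusters (1.38 and 1.33). Multidrug and organic acid efflux had 3 of 12 induced, *SSU1*, a sulfite pump (1.39 and 1.34), *FLR1* (0.96 and 1.18) and *TPO4* (1.07 and 0.97), while *PDR5*, the main drug pump, had -0.19 and -0.23. The list of amino acid permeases was split, with 3 of 12 members induced and 4 repressed. *DIP5*, for acidic amino acids (2.94 and 3.03), and *CAN1*, for arginine (3.13 and 2.65), were induced. The third induced member, *PTR3* (1.27 and 1.27), does not encode a permease. *TAT1* (-3.03 and -3.74), *MUP1* (-2.52 and -1.93), *BAP2* (-1.60 and -1.35) and *BAP3* (-1.48 and -1.46), which carry aromatic, sulfur and branched-chain amino acids, were repressed. The other members of the list were within 2-fold. Vitamin synthesis held both directions, with *RIB5*, riboflavin synthase (2.38 and 2.59), and *BNA1*, of NAD synthesis (2.23 and 2.30), against *HEM3* (-1.66 and -1.51) and *HEM12* (-1.45 and -1.40) of heme synthesis. Meiosis was covered in 12 of 61 listed genes, too few to describe, with *MEK1* at -2.48 and -2.49 and *ADY3* at 1.75 and 1.66.

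Some related genes had unlike values. Of 29 pairs chosen after the values were seen, 21 had values for both members, and the array values of the members did not overlap in 20 of them. The choice of pairs favours such differences. The share was not computed for other pairs of ORFs, so the count says nothing particular about related genes. *URA8*, the minor CTP synthase, had 1.19 and 1.55, against -5.53 and -5.81 for *URA7*, a difference of 7.04. *BAT2*, the cytosolic branched-chain aminotransferase, had 3.33 and 3.66, against -1.85 and -1.30 for the mitochondrial *BAT1*. In the cAMP pathway *PDE1* was 2.43 above *PDE2* (0.28 and 0.37) and *RAS2* (-0.05 and -0.09) was 2.35 above *RAS1*. In sugar metabolism *GLK1* was 3.44 above *HXK2*, *PYK2* was 2.94 above *CDC19* (-0.96 and -0.20), and *GPP2* (1.82 and 1.58) was 3.06 above *GPP1* (-1.53 and -1.2). *TIF4632* (0.10 and -0.35) and *TIF4631* (-2.91 and -2.86), for the eIF4G scaffold, differed by 2.76.

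Some such pairs share most of their sequence. *SSB1* (0.60 and 0.20) and *SSB2* (-4.04 and -3.86) encode nearly identical chaperones of the ribosome and differed by 4.35, although a probe made from a whole ORF should bind transcripts of both. *COS4* (YFL062W) and *COS6* belong to a family of closely similar genes near chromosome ends and stood at 8.36 and 5.44 against -2.46 and -2.40, with *COS12* (-2.40 and -1.74) and *COS8* (-1.31 and -1.02) also repressed. Whether these spots hold what their names say was not tested. In the other strains *COS4* was also high, with 5.36 and 4.96 on the *ptc6* arrays and 3.10 on the single array of the double mutant that gave a value.

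**Figure D4:**
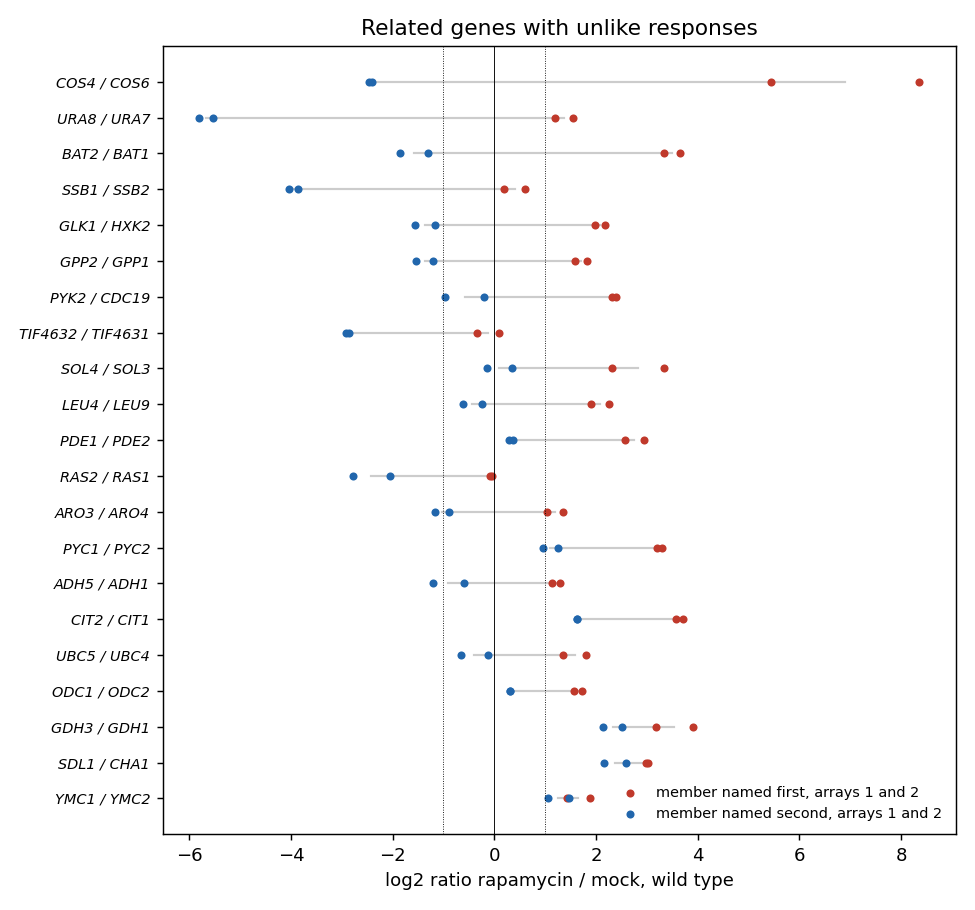
Log2 ratio of rapamycin over mock (x axis) on arrays 1 and 2 for 21 pairs of related genes (rows), ordered by the difference of their means, with the member named first in red and the member named second in blue. Dotted lines mark 1 and -1, and grey lines join the means. The pairs were chosen after the values were seen, and only *YMC1* and *YMC2* at the bottom overlap.

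Of the 2960 ORFs, 1120 were in no list, and 161 of these were induced and 142 repressed. The highest means among them were those of *HOS4* (4.95 and 4.96), a subunit of the Set3 histone deacetylase complex, *YIL165C* (5.58 and 4.27) and *ARO5* (YGL117W; 4.63 and 3.81). *YIL165C* and its neighbour *NIT1* (YIL164C; 4.42 and 4.70), which is a member of the nitrogen list, are ORFs of a nitrilase gene split in laboratory strains. Other unlisted ORFs had high values too. *YJR154W* (4.21 and 4.12) lies close to *DAL5* by number, *SRY1*, a hydroxyaspartate dehydratase, had 3.75 and 3.55, and *AMD2*, an amidase homologue, had 4.12 and 3.12. *MCH4*, of the monocarboxylate permease family, had 4.28 and 4.0, and *NCE103*, the carbonic anhydrase, had 2.81 and 2.63. *POR1*, the main porin of the mitochondrial outer membrane, had 1.93 and 2.24. Among repressed ORFs outside the lists, *PPT1*, a protein phosphatase that acts on Hsp90, had -4.72 and -4.22, *FKH1*, a forkhead transcription factor, had -4.16 and -3.88, and *SRO9*, an RNA-binding protein, had -4.09 and -3.95. *KRE33* (-3.84 and -3.87), the acetyltransferase of 18S rRNA, and *RSA4* (-3.29 and -3.06), of large subunit assembly, show that the growth lists do not hold every gene of that function. The 300 ORFs without a gene name had 10.7% induced and 17.7% repressed.

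Position on the chromosome was read from the order of ORF numbers. Ranks 6 to 10 from the end of a chromosome arm held 24 induced ORFs of 58 with a value (41.4%), against 14.1% for ORFs beyond rank 40, and ranks 11 to 20 held 23.7%. The 5 outermost ranks were sparsely measured, with a value for 45 of 140 ORFs, and there 4.44% were induced and 28.9% repressed. The induced ORFs of the outer 10 ranks included members of the nitrogen and amino acid lists. Among these were *CHA1* (2.15 and 2.59), a serine deaminase, its homologue *SDL1* (3.02 and 2.99), and *DLD3* (2.48 and 2.60), a lactate dehydrogenase. *GDH3* (3.90 and 3.17), a glutamate dehydrogenase, was induced there too. Others were *COS4*, *YJR154W*, *SRY1*, *GTT1* and the neighbouring butanediol dehydrogenase genes *BDH1* (1.58 and 1.72) and *BDH2* (1.37 and 1.62). The shares by rank were not split by function, so position and function cannot be told apart. Repressed there were *URA1*, *PHO89*, *PHO11*, *PHO12*, *COS6* and *COS12*. By chromosome, the induced share ran from 11.7% to 27.3%, the highest on chromosome IX, which holds *DAL3*, *DAL7*, *HOS4*, *YIL165C* and *NIT1*.

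**Figure D5:**
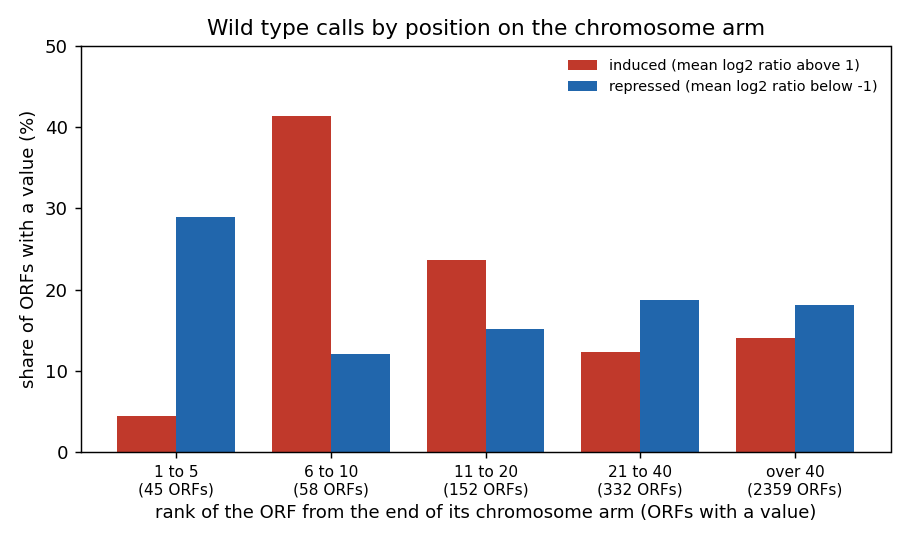
Share of ORFs with a value (y axis, percent) that were induced (red bars) or repressed (blue bars), by rank of the ORF from the end of its chromosome arm (x axis, with the number of ORFs with a value). The induced share is 41.4% at ranks 6 to 10 and 14.1% beyond rank 40.

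Neighbouring ORFs with values for both were compared by orientation. Of 429 divergent pairs, whose starts face each other across a shared upstream region, 35 were repressed together (8.16%). This compares with 16 of 429 convergent pairs (3.73%), 22 of 779 tandem pairs (2.82%) and 4.46% of all 1637 pairs. Pairs were not split by function, so orientation and function cannot be told apart. Across pairs, the Pearson r of the mean log2 ratios was 0.30 for divergent, 0.07 for convergent and 0.04 for tandem pairs, as a description, since neighbouring pairs share ORFs and the spots share arrays. Divergent pairs repressed together included *RPF2* with the nuclear pore gene *NUP133* (-1.0 and -1.01), *GCD10* (-1.19 and -1.18) with *NOP2* (-4.64 and -5.25), *RPB5* (-2.87 and -2.61) with *CNS1*, and *VTC3* with *CTF19*. In other divergent pairs the members went opposite ways, as did *NOC4* (-1.78 and -1.56) and *ASN1* (2.12 and 2.26), of which the first acts in 40S assembly and the second makes asparagine. Divergent pairs induced together were fewer, 12 of 429 (2.80%), close to the 2.75% of all pairs and below the 3.21% of tandem pairs. They included *MSB3* with *RIM21* (2.37 and 2.11) and *PEP12* with *SHE4* (2.02 and 1.74).

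ORF names without an entry in the current annotation include many doubtful reading frames that overlap a gene. They numbered 129 with a value, of which 6 (4.65%) were induced and 30 (23.3%) repressed, against 15.2% and 17.8% of the 2831 annotated ORFs. Of 26 repressed ones whose number gives an order, 15 (57.7%) lay beside a repressed annotated ORF, against 25% of repressed annotated ORFs. Examples were *YOR309C* (-3.81 and -4.69) beside *NOP58* (-3.71 and -3.87), and *YDR417C* (-3.83 and -3.70) beside *RPL12B* (-4.17 and -3.76). Probes amplified by PCR are double-stranded, so signal from a gene and from an ORF that overlaps it on the other strand cannot be told apart on these arrays.

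The direction of the calls was also read in the cultures of the other strains, which are separate cultures with mock controls of their own. Of 398 induced ORFs with values in *ptc6* cells, all 398 had a positive mean there and 294 (73.9%) were past 2-fold, and of 520 repressed ORFs all 520 had a negative mean and 399 (76.7%) were past 2-fold. In *ptc1 ptc6* cells 426 of 426 induced ORFs had a positive mean and 320 (75.1%) were past 2-fold, and 499 of 504 repressed ORFs had a negative mean and 433 (85.9%) were past 2-fold. Since ORFs were selected past a limit in wild type cells, lower shares in the other strains are no measure of a weaker response. For the vacuolar proteases the medians over 17 ORFs were 1.71 in wild type, 1.49 in *ptc6* and 1.48 in *ptc1 ptc6* cells, and for autophagy over 16 ORFs they were 1.31, 0.94 and 0.99. In *ptc6* cells *HOS4* had 3.76 and 3.73 and *CPS1* had 3.50 and 3.81. The double mutant gave 3.63 and 3.81 for *HOS4* and 4.17 and 4.29 for *CPS1*.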

How the data were processed

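Total RNA of 1 wild type culture, divided before treatment with 200 ng/ml rapamycin or with the mock treatment for 1 h, was hybridized by the authors to 2 arrays of PCR-amplified ORFs with the dyes exchanged. Per the labels, spots under 120 µm in diameter or under 150 fluorescence units were removed. The authors deposited a log2 ratio of rapamycin over mock for each ORF and array, after preprocessing with GEPAS, and the method of normalization is not given in the sources used here. Intensities were not analysed here, and precision is limited by having 2 arrays. Chromosomes XII and XIII (1016 ORFs) were left out because rows of the wild type and *ptc6* columns are shifted there against those of *ptc1 ptc6*. Across genes, wild type and *ptc1 ptc6* ratios correlated with r = 0.0156 and 0.543 there, and with 0.939 to 0.973 on the other 14 chromosomes, while wild type and *ptc6* ratios correlated with 0.9725 and 0.9731 on these same chromosomes. Which columns are out of place was not tested.

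The mean of both arrays was taken for ORFs with a value on each, and nothing was normalized again. Of 5196 ORFs kept, 3454 and 3097 had a value on arrays 1 and 2, and 1605 had none. The limit was 2-fold, as in the study's methods. No test was made, since there is 1 biological replicate. Gene names and order came from the RefSeq table of assembly R64, which matched 4729 of the 5196 ORFs. The 74 gene lists were written from general knowledge, and the members and lists were chosen with earlier results of these data known. Named were the 15 highest and 15 lowest ORFs past 2-fold on both arrays, up to 4 members of each described list in its main direction and up to 2 in the other, all members of lists with 12 or fewer values, the strain markers, and *ACT1* and *TDH3*. Other names were chosen after their values were seen. Counts over all ORFs and the list medians were recomputed with ORFs measured on at least 1 array, with centred arrays, with the mean of linear ratios, with chromosomes XII and XIII kept, and with each array left out. Limits of 1.5-fold, 3-fold and 2-fold on each array were tried for the counts over all ORFs, and centred arrays and each array left out for the named ORFs. Counts within lists, positions and gene pairs were not recomputed. A planned description of promoter motifs was not run, since promoter sequences were not used here. The 2-fold call and a median were tried on simulated arrays with changes set well past the limit, and the other steps were not. All steps were run with Python 3.11.15, numpy 2.4.6, pandas 2.3.3 and matplotlib 3.10.9.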

Additional observations from a re-analysis of the deposited data

Results flagged for a closer look

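*HAP4* and *HSP30* were singled out among repressed ORFs with both wild type arrays negative and both *ptc1 ptc6* arrays positive. They were not alone, as *HXT3* had -1.22 and -0.95 in wild type cells and 0.15 and 0.30 in *ptc1 ptc6* cells. *HAP4* had a mean log2 ratio of -1.61 in wild type cells, against 0.11 in *ptc1 ptc6* cells, where its arrays gave 0.04 and 0.17, near 0. *HSP30* had a mean of -1.64 in wild type cells, against 0.48 in *ptc1 ptc6* cells, and the *ptc6* means lay between these for both genes, at -0.75 for *HAP4* and -0.23 for *HSP30*. Each strain is a single culture, and the difference between strains was not tested.

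*CIT3* (YPR001W), a mitochondrial citrate synthase gene, was singled out as an extreme value outside the measured set. It had a log2 ratio of 16.25 on wild type array 1, the highest value of all 6 arrays outside chromosomes XII and XIII, and no value on array 2, so it is not among the 2960 ORFs. This value of a single array lies far above the highest mean of those ORFs, 7.1. It cannot be read as a size of induction. It had no value in *ptc6* cells, and 2.59 and 2.67 on the *ptc1 ptc6* arrays.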

How the results depend on the processing

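Counts of induced and repressed ORFs stayed within 1.5 times those given, except for the induced ORFs under other limits, with 768 at 1.5-fold and 211 at 3-fold. Leaving out an array, which also admits ORFs measured on the other alone, gave 467 to 523 induced and 555 to 621 repressed ORFs. With arrays centred on their median the counts were 404 and 559, so induced ORFs made up 42.0% of the calls in place of 44.9%. Over 74 list medians, 0 changed sign from a value past the limit under any alternative, and at most 4 crossed the limit of 1 or -1 under a single one. The largest move was 0.48, for genes of RNA polymerases I and III with a value on at least 1 array. Of 319 named ORFs past 2-fold, 18 were within it without array 1, 13 without array 2 and 6 with centred arrays. No paired analysis was possible because each array compares rapamycin with mock within itself, both arrays of a strain hold the same RNA, and no test was made. Values on 1 array alone, for 631 ORFs, entered only the alternatives with a value on at least 1 array and those that leave out an array, and signal over background was not analysed here.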
